A study of Mus musculus with 8 samples.

Results

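Genes for ligands by which tumour cells restrain T cells, natural killer cells and macrophages were followed in 4T1, a mouse triple-negative breast cancer cell line. The set was a named list of 10 genes: Cd274, Pdcd1lg2, Cd276, Cd47, Pvr, Nectin2, Lgals9, Cd80, Vtcn1 and Cd24a. Of the 28712 genes listed in the deposited tables, 9 belonged to this list, and Pdcd1lg2 was listed in neither table. Cd80 and Vtcn1 fell under the filter on low counts, so 7 genes were tested.

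RNA-seq was run on 8 libraries in 4 groups of 2, and 6 libraries in 3 groups were used here. These were 4T1 cells given sdAb#07.81 for 24 h, sdAb#07.81 for 48 h, or the control antibody sdAb-Con for 48 h, and libraries of the group named Con were not used. sdAb#07.81 is a single-domain antibody against NUPR1, a stress-induced nuclear protein, and the study asked how cells that received it differ in expression from control cells. Both antibodies were purified from HEK293F cells and carried a Flag tag, the C-degron cOdc1, a Tat peptide for entry into cells and a His tag. They were added at 0.5 µg/ml, and per the labels all groups were kept in RPMI 1640 with serum at 1% O2 and 5% CO2. One cell line in culture, with no immune cells, is the whole model, and nothing in the labels says that the 2 libraries of a group came from separate cultures, so p-values measure only the spread between these libraries. No sdAb-Con group at 24 h exists among these groups, so time in culture and length of antibody exposure cannot be told apart.

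Immune checkpoints are pairs of a ligand on one cell and an inhibitory receptor on a lymphocyte or macrophage. PD-L1, encoded by Cd274, engages PD-1 on T cells, and interferon signalling through JAK kinases and IRF1 is its best known inducer. CD47 and CD24 hold back phagocytosis by macrophages, the nectin family ligands PVR and NECTIN2 are shared between the inhibitory receptor TIGIT and the activating receptor DNAM-1, and galectin-9, encoded by Lgals9, binds TIM-3.

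The deposited tables gave each gene's mean over 4 libraries of the read count divided by the library's size factor, and the reads of single libraries were recovered from those means by arithmetic. Which 2 libraries were sdAb#07.81 (48 h) followed from their presence in both tables, and the libraries of a group are called A and B in no meaningful order. Solved reads came to between 13020389 and 16083039 per library. The median absolute log2 difference between the libraries of a group was 0.157 in sdAb-Con (48 h), 0.156 in sdAb#07.81 (48 h) and 0.182 in sdAb#07.81 (24 h). Of the marker lists, the epithelial list included the keratin Krt8 with 10003 to 12783 normalised reads, and its 4 solved genes summed to 25650 to 30987 without Cdh1, which had no unique solution, while the leukocyte markers Ptprc, Cd3e, Itgam and Adgre1 had at most 4.35. Cd68, a lysosomal protein of macrophages that other cells also make, had 235 to 1035 and differed between all pairs of groups by limma (log2 -0.52, 1.17 and 1.71 in the order of the comparisons below). Fibroblast genes summed to 804 to 1277 and endothelial genes to 1.90 to 11.4, and sdAb#07.81 (24 h) library B stood apart in all 3 fibroblast genes. It had 37.9 normalised reads of Col1a1 beside 151 to 213 elsewhere, 2.85 of Dcn beside 30.4 to 47.4, and 1237 of Pdgfra beside 605 to 949. Pdgfra was lower in both 48 h groups than at 24 h by limma (log2 -0.77 and -0.81). Col1a1 and Dcn went the other way. In sdAb#07.81 (48 h) against 24 h they did not pass (log2 1.04 and 1.34). In sdAb-Con (48 h) against 24 h both passed (log2 1.03 and 1.73, limma adjusted p = 0.0288 and 0.0286). Krt14, a basal keratin, was highest at 24 h (584 and 647) and lowest in sdAb#07.81 (48 h) (232 and 260). The part of these markers in the results below was not tested. Nupr1 mRNA, whose protein is the antibody's target, had 3553 and 2978 normalised reads in sdAb-Con (48 h), 2898 and 2900 in sdAb#07.81 (48 h), and 1543 and 2119 in sdAb#07.81 (24 h). An antibody that removes protein need not lower the mRNA, so Nupr1 does not check the labels.

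By the test, Cd274 and Lgals9 were the members that stood above both other groups after sdAb#07.81 for 48 h. The 250 bases before the RefSeq start of each (GRCm38.p6, 5′ to 3′ on the gene's strand) are shown because these genes moved together. The Cd274 stretch lies at chr19:29367188-29367437 on the plus strand and the Lgals9 stretch at chr11:78984925-78985174 on the minus strand. Capitals mark matches on either strand to GAAANNGAAA, a core of the interferon-stimulated response element, or to GGGCGG, the GC box.
Cd274: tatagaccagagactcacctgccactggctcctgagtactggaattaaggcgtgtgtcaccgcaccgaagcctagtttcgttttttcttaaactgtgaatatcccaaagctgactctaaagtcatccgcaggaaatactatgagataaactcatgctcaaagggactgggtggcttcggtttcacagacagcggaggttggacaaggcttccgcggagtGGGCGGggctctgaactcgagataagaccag
Lgals9: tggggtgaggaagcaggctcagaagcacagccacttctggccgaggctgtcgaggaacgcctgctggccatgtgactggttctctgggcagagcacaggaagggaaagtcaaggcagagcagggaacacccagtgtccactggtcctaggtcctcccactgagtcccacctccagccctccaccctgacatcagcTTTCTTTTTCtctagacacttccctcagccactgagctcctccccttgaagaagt
The capitals in Lgals9 are a reverse-strand match to GAAANNGAAA whose first base lies 55 bases before the start. The capitals in Cd274 are a GC box that begins 31 bases before the start. RefSeq promoters were found for 8 of the 10 members, with none for Pvr and Cd24a, and 11 short motifs were searched on both strands of these 250 bases. GAAANNGAAA occurred in 1 member, Lgals9, and in 2.98% of 32851 promoters. GGGCGG occurred in 4 members and in 32.7% of promoters, and GGGANNNNCC, an NF-kappaB type motif, in 4 members and 17.6% of promoters. Lgals9 is one of these 4, and this match is not marked in the sequence above. CCAAT (33.8% of promoters), ACGTG (16.6%) and TGANTCA (6.75%) each occurred in 1 member. TTCNNNGAA (7.02%), TATAAA (12.4%), TGATGNAA (3.45%), TGACGTCA (1.55%) and GAAANNGAAAC, which contains the first motif (0.685%), occurred in 0 of the 8. A match describes these letters and not a bound site.

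Ranked per kb of exon over the 6 libraries, the ligand genes ran from abundant to hardly detected. Cd24a led with 1531 normalised reads per kb, followed by Cd47 with 1092, Lgals9 with 634, Nectin2 with 371, Cd276 and Pvr with 251 each, and Cd274 with 45.5. Cd80, a costimulatory ligand that also binds PD-L1, reached 1.36 and Vtcn1, the gene of the B7 family inhibitor B7-H4, 0.858.

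**Figure D1:**
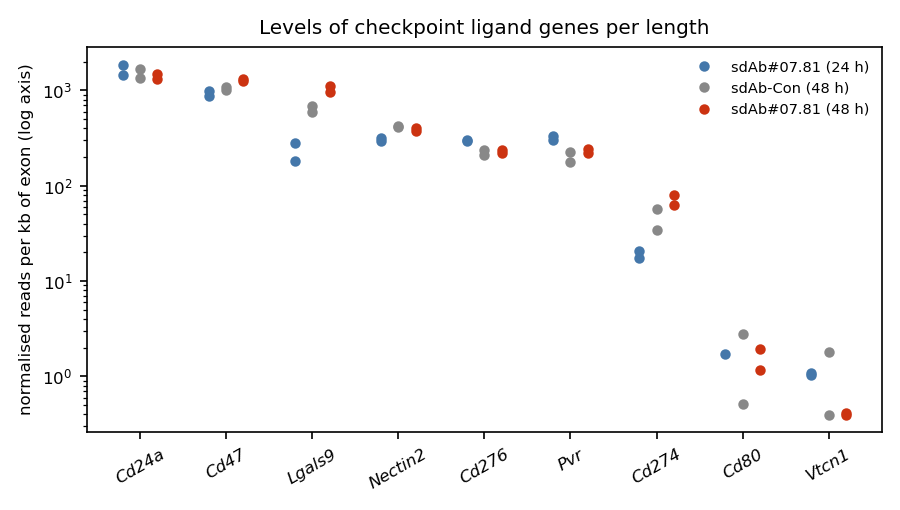
Each point is 1 library, with the gene's normalised reads per kb of exon on a log axis and the groups in colour. Cd24a and Cd47 rank first and second in all 6 libraries, and Cd80 in sdAb#07.81 (24 h) library B, at 0 reads, has no point on the log axis.

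Cd24a, whose glycoprotein is read by SIGLEC receptors on macrophages and B cells, held 29.5% to 48.2% of the summed per-kb level of the 9 genes. Cd47, the ligand of SIRPα, held 22.7% to 29.3%. These shares of the phagocytosis inhibitors did not overlap, but in sdAb#07.81 (48 h) library A they were nearly equal (29.5% and 29.3%). Cd24a was first and Cd47 second in every library. Lgals9 held place 3 in all 4 libraries of 48 h and place 6 in both of 24 h. Cd276 moved the other way, from place 4 in both 24 h libraries to 5 or 6 in those of 48 h. The share of Lgals9 in the summed level was 4.69% and 7.7% in sdAb#07.81 (24 h), 15.6% in both libraries of sdAb-Con (48 h), and 21.2% and 23.1% in sdAb#07.81 (48 h). Nectin2 held place 4 in all 48 h libraries and places 5 and 3 at 24 h. Cd276 and Pvr changed places between the libraries of each 48 h group and are not separated beyond their spread. Pvr also depends on the length used, since dividing by its longest transcript in place of all its exons put it at 528, in place 4 of the order. Cd274 was seventh in every library, with 0.448% to 1.69% of the summed level.

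**Figure D2:**
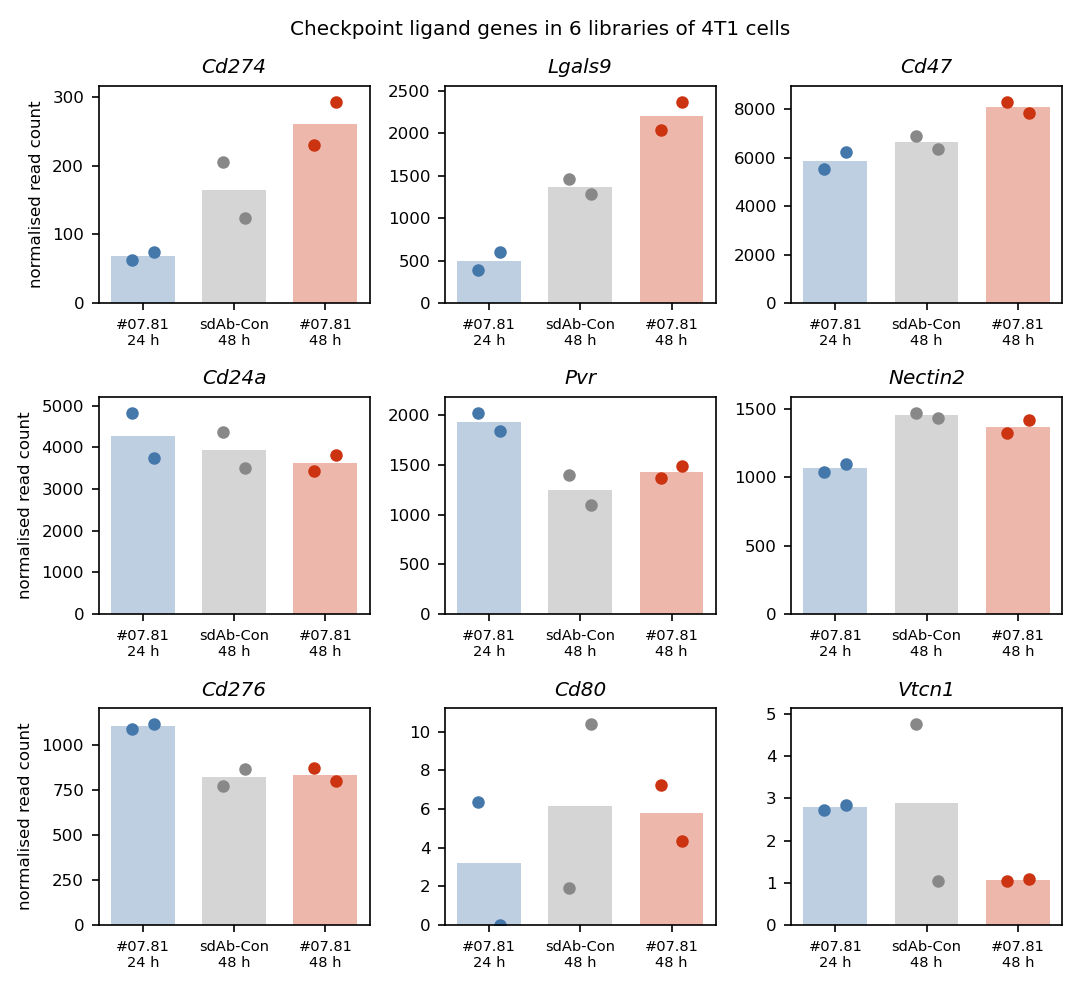
Normalised read counts of the 9 listed ligand genes, with bars for the mean of 2 libraries, points for single libraries and each vertical axis starting at 0. Cd274 and Lgals9 rise from sdAb#07.81 (24 h) over sdAb-Con (48 h) to sdAb#07.81 (48 h) without overlap, while Pvr and Cd276 are highest at 24 h.

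The comparison of sdAb#07.81 (48 h) with sdAb-Con (48 h) asks what the anti-NUPR1 antibody does at equal time. Of the 7 members tested, 2 were higher, Cd274 and Lgals9, and 0 were lower, against 8.98% of all 13756 tested genes higher and 6.14% lower (15.1% in either direction, limma with Benjamini-Hochberg adjusted p under 0.05). No lower member (0) had an unadjusted p under 0.05 either. The median log2 difference of the 7 was 0.21, beside -0.02 for all tested genes. A further member, Cd47, was higher in both libraries of sdAb#07.81 (48 h) without passing the test.

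Cd274 (chromosome 19, 29344855 to 29365495 in the tables' coordinates, plus strand) had 206 and 124 normalised reads in sdAb-Con (48 h) and 230 and 292 in sdAb#07.81 (48 h). The groups did not overlap, but the lower treated library stood close to the higher control library. In bulk RNA, more cells that express a gene and more RNA per cell cannot be told apart. Means were 165 ± 57.5 and 261 ± 44.2 (SD, n = 2 libraries each), a log2 difference of 0.70 with a standard error of 0.196 (1.62-fold, 95% interval 1.23 to 2.14, limma, Benjamini-Hochberg adjusted p = 0.0162). The call rested on single libraries of both groups, since without sdAb-Con library B the difference fell to 0.34 (adjusted p = 0.286 by the same limma fit), and without sdAb#07.81 (48 h) library B to 0.53 (limma adjusted p = 0.0899). It was also lost with all 3 groups in one limma fit (0.69, adjusted p = 0.0632) and with the trend on transcript length, GC content and mean level removed (0.64, limma adjusted p = 0.0749).

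Lgals9 (chromosome 11, 78853800 to 78875772, minus strand) had 1461 and 1279 normalised reads in sdAb-Con (48 h) and 2038 and 2365 in sdAb#07.81 (48 h). Both treated libraries lay well above both control libraries. The log2 difference was 0.69 with a standard error of 0.117 (1.61-fold, 95% interval 1.37 to 1.90, limma, Benjamini-Hochberg adjusted p = 0.000222). It stayed between 0.58 and 0.80 with any 1 library left out, and the call was kept in each case. With no filter on low counts neither this call nor that of Cd274 passed (limma adjusted p = 0.0772 and 0.217).

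None of the macrophage-directed and nectin ligands, nor Cd276, passed the test between the antibodies at 48 h, and 1, Cd47, had an unadjusted p under 0.05 (0.0186, limma), beside 4061 of 13756 tested genes. Cd47 had 6897 and 6355 normalised reads with sdAb-Con and 8288 and 7847 with sdAb#07.81, with no overlap and a log2 difference of 0.29 (95% interval 0.05 to 0.53, limma adjusted p = 0.088). Cd24a had 4366 and 3517 against 3430 and 3824, groups that overlapped, and its log2 difference was -0.11 (interval -0.35 to 0.14). Pvr (1395 and 1099 against 1363 and 1492) and Nectin2 (1470 and 1437 against 1326 and 1416) gave log2 differences of 0.21 (interval -0.04 to 0.46) and -0.08 (interval -0.31 to 0.15). Cd276, the gene of B7-H3, had 772 and 867 against 870 and 799 normalised reads and a log2 difference of 0.03 (interval -0.22 to 0.28). For these 4 genes the intervals leave room for changes of up to 1.38-fold in the case of Pvr, so likeness was not shown.

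**Figure D3:**
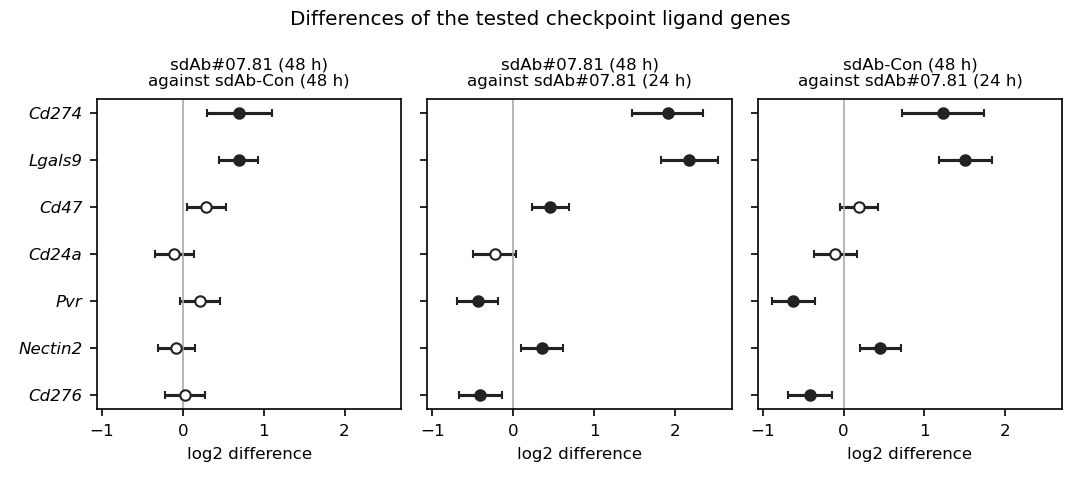
Log2 differences of the 7 tested ligand genes in 3 comparisons, with 95% intervals from limma; filled points have an adjusted p under 0.05 and open points do not. Cd274 and Lgals9 lie to the right of 0 in all 3 panels, and Pvr and Cd276 lie to the left in both comparisons with 24 h.

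The comparison of sdAb#07.81 at 48 h with sdAb#07.81 at 24 h asks how cells under the same antibody changed with time. Of the 7 members tested, 4 were higher at 48 h (Cd274, Lgals9, Cd47 and Nectin2) and 2 were lower (Pvr and Cd276). Among all 13848 tested genes 41.5% were called, 19.8% higher and 21.7% lower, so calls were common in this comparison. The median log2 difference of the 7 was 0.36, beside -0.01 over all tested genes.

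Lgals9 had the largest difference among the members, with an interval that overlaps that of Cd274, and went from 389 and 603 normalised reads at 24 h to 2038 and 2365 at 48 h, a log2 difference of 2.18 with a standard error of 0.166 (4.52-fold, 95% interval 3.54 to 5.76, limma, Benjamini-Hochberg adjusted p = 3.2e-08). The 24 h libraries were themselves 0.63 apart on the log2 scale, less than the gap to 48 h. Cd274 went from 62.8 and 74.0 normalised reads, or 69 and 78 reads, to 230 and 292, a log2 difference of 1.91 with a standard error of 0.209 (3.75-fold, interval 2.77 to 5.09, limma adjusted p = 2.04e-06). Neither call was lost under any alternative run, and the lowest differences were 1.87 for Lgals9 and 1.73 for Cd274.

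Cd47 had 5518 and 6217 normalised reads at 24 h, both below its 48 h libraries, and rose by 0.46 on the log2 scale (standard error 0.108, limma adjusted p = 0.00269). Cd24a had 4825 and 3740 at 24 h, a range that overlapped its 48 h values of 3430 and 3824, and its log2 difference of -0.23 did not pass the test (interval -0.50 to 0.04, limma adjusted p = 0.156). Without sdAb#07.81 (24 h) library B it was -0.42 and would pass (limma adjusted p = 0.0128). Counted as reads, not per length, Cd47 had 1.14 and 1.66 reads per Cd24a read in the 24 h libraries and 2.42 and 2.05 at 48 h under sdAb#07.81. With sdAb-Con at 48 h the ratio was 1.58 and 1.81.

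Pvr and Nectin2, which encode ligands of the same receptors, moved in opposite directions. Pvr (chromosome 7, 19637503 to 19655085, minus strand) had 2020 and 1841 normalised reads at 24 h and fell by 0.44 on the log2 scale by 48 h (standard error 0.12, limma adjusted p = 0.00743). Nectin2 (chromosome 7, 19450569 to 19484408, minus strand), whose end lies 153 kb from the start of Pvr, had 1039 and 1098 at 24 h and was 0.36 higher at 48 h (standard error 0.121, limma adjusted p = 0.0258). The Nectin2 call was the least steady of the 6, with 3 of 4 fits that leave out a library losing it (log2 0.31 to 0.41 over the 4, highest limma adjusted p = 0.186). Pvr lost its call without sdAb#07.81 (48 h) library A (-0.37, limma adjusted p = 0.0719). With no filter on low counts Pvr, Nectin2 and Cd276 all lost their calls (limma adjusted p = 0.0514, 0.0718 and 0.053).

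The ratio of Nectin2 to Pvr reads inside a library does not depend on its size factor. It was 0.514 and 0.597 in sdAb#07.81 (24 h), 0.973 and 0.949 in sdAb#07.81 (48 h), and 1.05 and 1.31 in sdAb-Con (48 h). The 24 h libraries lay apart from the 4 libraries of 48 h, and the 48 h groups also did not overlap each other. Cd276 had 1089 and 1115 normalised reads at 24 h, above all 48 h libraries, and was lower at 48 h by a log2 difference of -0.41 (standard error 0.125, limma adjusted p = 0.0153). Without sdAb#07.81 (48 h) library B it no longer passed (-0.35, limma adjusted p = 0.135). Lgals9 had 0.357 and 0.541 reads per Cd276 read at 24 h and 2.34 and 2.96 at 48 h, and for Cd274 these ratios were 0.0577 and 0.0663 against 0.264 and 0.366. The ratio of Cd274 to Lgals9 varied far less, between 0.0972 and 0.162 over the 6 libraries, and its group ranges overlapped.

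**Figure D4:**
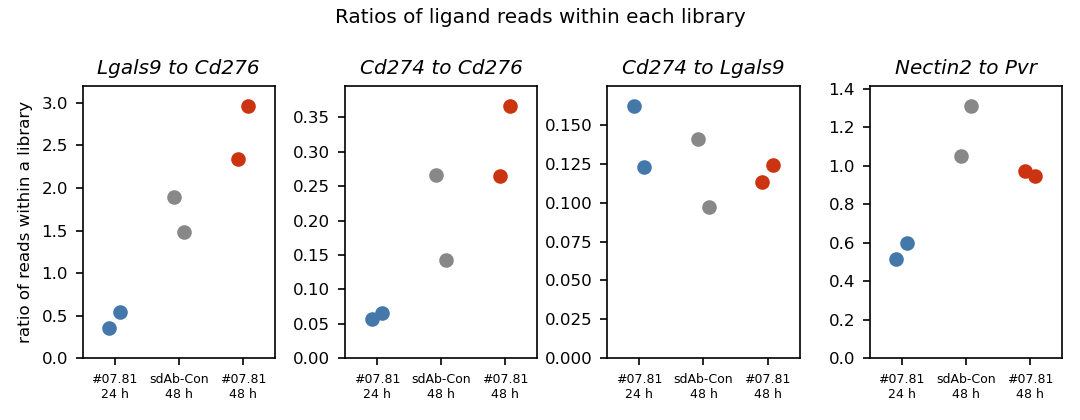
Ratios of reads between ligand genes within each of the 6 libraries, each axis starting at 0 and each point 1 library. Ratios of Lgals9 and Cd274 to Cd276 and of Nectin2 to Pvr are lowest in both 24 h libraries, while Cd274 to Lgals9 stays between 0.0972 and 0.162.

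The tables for the 2 comparisons share the sdAb#07.81 (48 h) libraries, so their difference is the comparison of sdAb-Con (48 h) with sdAb#07.81 (24 h), in which antibody and time change together and cannot be told apart. It also shares libraries with both comparisons above and is not independent of them. Of the 7 members, 3 were higher in sdAb-Con (48 h), Cd274, Lgals9 and Nectin2, and 2 were lower, Pvr and Cd276, against 24.9% of 13823 tested genes higher and 25.1% lower (50.0% in either direction). The median of the 7 was 0.19 on the log2 scale and that of all tested genes 0.

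Cd274 was 1.23 higher on the log2 scale (standard error 0.247, limma adjusted p = 0.000192) and Lgals9 1.5 (standard error 0.159, limma adjusted p = 1.97e-08). Both were lowest in sdAb#07.81 (24 h), intermediate in sdAb-Con (48 h) and highest in sdAb#07.81 (48 h), and the 3 groups did not overlap for either gene. How many of all tested genes separate without overlap was not counted, so such gaps are description only. With 1 library left out the Cd274 difference spanned 0.87 to 1.59, and the call held in 4 of 4 fits. Pvr differed by -0.63 (standard error 0.129, limma adjusted p = 0.000242), Nectin2 by 0.45 (standard error 0.123, limma adjusted p = 0.00335) and Cd276 by -0.42 (standard error 0.13, limma adjusted p = 0.00885). These genes stood apart from 24 h under both antibodies at 48 h, while the differences between their 48 h groups did not pass the test. Cd47 (0.19, interval -0.04 to 0.42) and Cd24a (-0.11, interval -0.37 to 0.16) did not pass, although with the trend on length, GC content and mean level removed Cd47 was 0.46 higher (limma adjusted p = 0.000988).

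Cd80 and Vtcn1 were at the edge of detection. Cd80 had 2 and 10 reads in sdAb-Con (48 h), 7 and 4 in sdAb#07.81 (48 h), and 7 and 0 in sdAb#07.81 (24 h), where a count of 0 allows up to 3 reads or 2.85 normalised reads, for counting error only. Vtcn1 had 5 and 1, 1 and 1, and 3 and 3 reads in the same order. Differences in these genes were not detectable at this depth. Cd274, Cd276, Pvr and Nectin2 each overlap an annotated gene on the opposite strand, and since the strand setting of the counting is not given in the sources used here, reads of the partner cannot be told apart from theirs.

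Among 7 regulators of these ligands, 1 (Jak2) exceeded sdAb-Con (48 h) in the sdAb#07.81 (48 h) cells, 2 (Irf1 and Jak2) exceeded 24 h, and 0 were lower in either comparison, also at an unadjusted p under 0.05 (limma). Of all tested genes 8.98% and 19.8% were higher and 6.14% and 21.7% lower in these comparisons, and 4061 of 13756 and 6850 of 13848 had an unadjusted p under 0.05, so the counts called among 7 genes are near the background. Irf1, an interferon-responsive transcription factor, had 1571 and 1545 normalised reads at 24 h, 4151 and 3479 in sdAb-Con (48 h) and 3754 and 4629 in sdAb#07.81 (48 h). It differed between times (log2 1.42, limma adjusted p = 1.35e-07) while its 48 h groups overlapped (0.14, interval -0.11 to 0.39). Jak2 was 0.46 higher with sdAb#07.81 than with sdAb-Con at 48 h (limma adjusted p = 0.00655). Cmtm6 and Cmtm4, which keep PD-L1 protein from degradation, and Qpctl, which modifies CD47 so that SIRPα can bind, passed in none of the 3 comparisons.

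**Figure D5:**
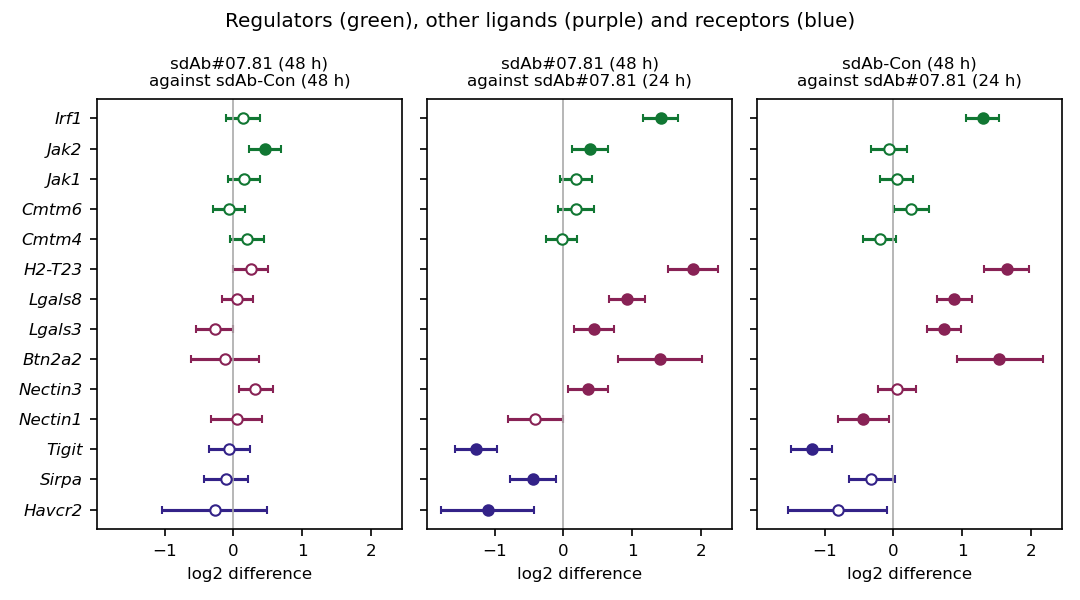
Log2 differences with 95% limma intervals for regulators, other ligands and receptors in 3 comparisons; filled points have an adjusted p under 0.05. In both comparisons with 24 h, Irf1 passes to the right, at 1.42 and 1.3, and Tigit to the left, at -1.27 and -1.19.

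Of 18 other ligand names on the list, 14 were listed, 1 of them (Lgals1) had no unique solution and 10 were tested. None of the 10 passed between the antibodies at 48 h by limma, beside 15.1% of all tested genes. At an unadjusted p under 0.05 there were 3, beside 4061 of 13756 tested genes (Nectin3, Tnfrsf14 and H2-T23, unadjusted p = 0.0115, 0.04 and 0.0481 from the limma fit across genes). Against 24 h, 5 were higher in sdAb#07.81 (48 h) and 0 lower, beside 19.8% and 21.7% of all tested genes, with Nectin1 lower at an unadjusted p of 0.0458 in the limma fit. H2-T23, whose Qa-1 product engages the NKG2A receptor of natural killer and T cells, had 392 and 598 normalised reads at 24 h and 1586 and 2032 at 48 h (log2 1.89, limma adjusted p = 2.66e-07). Btn2a2, a butyrophilin, was 1.4 higher (limma adjusted p = 0.00099). Lgals8, a relative of Lgals9, was 0.93 higher and Lgals3 0.45 higher (limma adjusted p = 1.77e-05 and 0.0158), and Nectin3 0.36 higher (limma adjusted p = 0.0488). In sdAb-Con (48 h) against 24 h, 4 were higher and 1, Nectin1, was lower (-0.44, limma adjusted p = 0.0485), beside 24.9% and 25.1% of all tested genes.

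Of 11 receptor genes, 7 were listed. None of the 4 tested at 48 h passed by limma between the antibodies, beside 15.1% of all tested genes, and at an unadjusted p under 0.05 the count was 0, beside 4061 of 13756. Against 24 h, 5 were tested, because Cd28 passed the filter only through its 24 h libraries (10.9 and 26.6 normalised reads), so its direction follows from the filter and it is not counted here. Of the other 4, 3 (Tigit, Sirpa and Havcr2) were lower in sdAb#07.81 (48 h) and 0 higher, also at the unadjusted level, beside 21.7% of all tested genes lower. Tigit, the receptor for PVR and NECTIN2 usually described on lymphocytes, had 766 and 843 normalised reads at 24 h, 336 and 362 in sdAb-Con (48 h), and 310 and 360 in sdAb#07.81 (48 h), a log2 difference of -1.27 between the times (limma adjusted p = 3.07e-06). Ptprc, the pan-leukocyte marker, had 0 to 4.35 normalised reads in the same libraries and Cd3e, a T cell receptor subunit, also stayed at or under 4.35.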

How the data were processed

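The authors' libraries (Trizol RNA, paired ends) were processed per the submitters' notes with cutadapt 1.9.1, HISAT2 2.0.1 and HTSeq 0.6.1. The labels name a human build, while identifiers and coordinates are mouse and 0 of 9 members had their coordinates in GRCm38, so the build is not given in the sources used here. The deposited tables hold the authors' mean normalised count per gene, a signal averaged over the 4 libraries compared. They also hold the authors' fold change, its log2, standard error, statistic and p-values, which were not used. No column of another sample (0) was present.

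Because each mean is a sum of whole reads times 4 fixed steps, whole reads were solved from both means together (integer lattice search, Python 3.11.15). A unique solution was found for 28592 genes, and 120, all with means of at least 11991, were left out. Among 8481 low genes solved in each table alone, both shared libraries had identical counts in 100%. Any other pairing of libraries across the tables had identical counts in at most 45.3%. The recovery and the fit were tested on simulated data. Because the tables hold no counts as deposited, the planned count test was replaced by limma 3.58.1 (R 4.3.3, empirical Bayes with a mean-variance trend) on log2(normalised count + 1). Fits used the 4 libraries compared and genes with a mean of at least 10, with Benjamini-Hochberg adjustment over all of them and a threshold of 0.05. A fold change is on this scale and understates that of low genes. Levels per kb used all exon bases of the gene in GENCODE M21, matched by identifier.

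The members and lists were chosen with earlier results of these data known. The genes named were all members and, from fixed lists, regulators, other ligands, receptors and markers. Each list is given by its counts with examples, and 1 listed gene was left out of its list's counts and is not reported here. Alternatives were no filter, each library left out, another length, and, added after the data were seen, other pseudocounts, library totals, voom weights, all 3 groups in one fit and correction for transcript length, GC content and mean level.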

Additional observations from a re-analysis of the deposited data

How the results depend on the processing

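No member's log2 difference changed direction where it was called. Of the alternative values for single members, 214 kept their side of the threshold, 15 lost a call and 2 gained one. The comparison between antibodies at 48 h was the least steady. Its calls went from 2079 genes and 2 members to 32 genes and 0 members with no filter, to 1341 genes and 1 member with all 3 groups in one fit, and to 1028 genes and 1 member with the trend on length, GC content and mean removed. With 1 library left out it gave 538 to 2478 genes and 1 to 2 members, the 538 without sdAb#07.81 (48 h) library A, and Cd274 was the member lost without library B of either group. In sdAb#07.81 at 48 h against 24 h, no filter gave 3541 genes and 3 members in place of 5747 and 6, and leaving out a library gave 4194 to 5780 genes and 4 to 7 members. In sdAb-Con (48 h) against 24 h, leaving out a library gave 4921 to 6483 genes and 4 to 5 members in place of 6911 and 5. Cd276 lost its call there without sdAb-Con library A (-0.33, limma adjusted p = 0.128). The cause was not tested, except that a fit without 1 library leaves a lone sample assumed to vary like the others.

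Across genes, the log2 difference went with transcript length (Spearman's rho 0.45 over 13607 genes between antibodies at 48 h, -0.121 and -0.32 in the comparisons with 24 h), and genes are not independent replicates. Library totals moved the median of all genes by at most 0.0458. Division of each table by its sum was not run, since reads of single libraries were used. The planned count test was not run on the recovered reads. Their scaling by median ratios and a fit with voom weights were run. No paired analysis was possible because the recovered libraries carry no replicate number. With 2 libraries a group, the median standard error was 0.14 to 0.155 on the log2 scale.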
